A study of Homo sapiens with 2 samples.

Results

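The weakest of 4 equal groups of decitabine-treated HCT116 cells, ranked by how much RNA each cell held from genes that were near silent without the drug, comprised 280 of 1120 cells. HCT116, a line derived from a human colon carcinoma, is a model in which many promoters are silenced by DNA methylation. Decitabine (5-aza-2′-deoxycytidine, DAC) was given to one culture at 0.5 µM, with doses on day 1 and day 3, and from day 5 until its cells were taken on day 7 the culture grew without it. A mock-treated culture of the same line was the control. Each culture gave 1 droplet-based single-cell library (10x Genomics Chromium, 3′ chemistry v3), in which every captured transcript carries a unique molecular identifier (UMI), so that a UMI count approximates a count of RNA molecules. The libraries held 1751 DAC-treated and 1783 mock-treated cells, 3534 in all. Cells were kept with 10000 or more UMIs and with 50% or less of their UMIs from the mitochondrially encoded (MT-) genes, which left 1120 DAC-treated and 1298 mock-treated cells.

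Members were chosen in the following manner. Genes that no mock-treated cell held with more than 2 UMIs are called selected genes, and there were 22208 of them. The share of a cell's UMIs that came from selected genes ranked the DAC-treated cells. The 280 cells with the lowest share are called the weak group, the 280 with the highest share the strong group, and those between them the second and the third group. Levels were compared over the remaining 11317 nuclear genes, as UMI counts per 1000000 UMIs of those genes (CPM), summed over the cells of a group, so that neither the selected nor the MT- genes entered the denominator.

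DAC is a cytidine analog. It enters cells through nucleoside transporters, is phosphorylated by deoxycytidine kinase and is built into DNA during replication, where it traps DNMT1, the enzyme that copies methylation marks onto the new strand with the help of UHRF1. Marks are then lost over the following divisions, and genes whose promoters were silenced by methylation can be transcribed again, among them cancer-testis genes of the X chromosome, imprinted genes and endogenous retroviruses. Double-stranded RNA from retroviral elements can set off an interferon response. Uptake, phosphorylation, replication and interferon signalling are therefore the processes whose genes are described below.

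Cells of 1 library share a culture and a library and are not replicates, so differences between the groups carry no test. Where an exact 95% interval is given, of a ratio or of a share of cells, it covers counting error only and says nothing of the spread between cultures. The groups had similar median depths, and the strong group had more shallow cells, with a 10th percentile of 22799 UMIs against 30423 in the weak group. The median cell held 46069 UMIs in the weak and 44980 in the strong group, against 32297 in mock-treated cells, and the median MT- share was 16.4%, 19.8% and 17.1%. All 12 epithelial markers examined (among them EPCAM, KRT8, KRT18 and KRT19) belonged to the remaining genes. The summed level of these markers was 12428 CPM in the weak group, 9072 in the strong group and 7152 in mock-treated cells. All 10 blood and endothelial markers were selected genes, and none had more than 13 UMIs over the 280 weak cells. Free RNA in the droplets was not estimated, and its part in low counts was not tested. The libraries shared 12 cell barcodes, 2 of them in the weak and 0 in the strong group.

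The weak group reached down into the range of mock-treated cells. Its share of UMIs from selected genes had a median of 0.805%, with a lowest value of 0.387% and a highest of 0.920%. The median was 1.01% in the second group, 1.24% in the third and 1.77% in the strong group, where the highest cell reached 10.3%. In mock-treated cells it was 0.452%, from 0.183% to 1.02%. The weak group therefore lay between the bulk of the mock-treated cells and the other DAC-treated cells, and "weak" names a place in this ranking, not an absence of RNA from selected genes. Of the 280 weak cells, 116 (41.4%) had a share at or below 0.784%, the 99th percentile of mock-treated cells, and all 280 lay at or below the highest mock-treated cell. In the second group 160 cells (57.1%) lay at or below that highest cell. The distribution had no gap at the cut. The last member had a share of 0.9203% and the first cell outside had 0.9212%, and 63 cells below and 82 above lay within 0.05 percentage points of the cut. These shares chose the members and are given as a description.

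**Figure D1:**
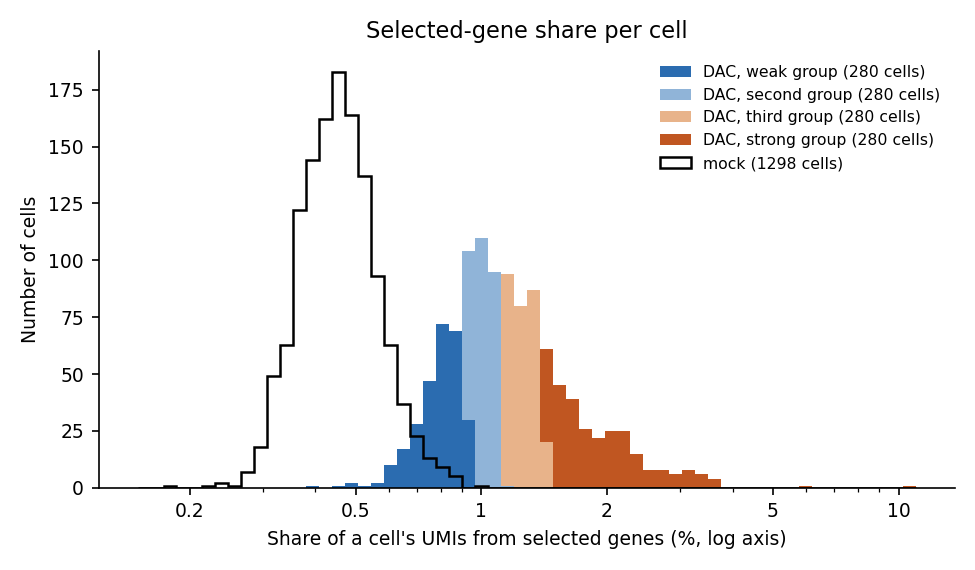
Share of each cell's UMIs from selected genes, on a log axis, for the 4 groups of DAC-treated cells (stacked bars) and for mock-treated cells (black outline); the vertical axis counts cells. The weak group (median 0.805%) overlaps the upper part of the mock distribution (median 0.452%), and the strong group (median 1.77%) lies apart from it.

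A low share on some chromosomes went with a low share on the others. Cells were ranked again by selected genes on odd-numbered chromosomes alone, and the share was read on even-numbered chromosomes and X. The lowest group of that ranking had a median of 0.396% and the highest 0.879%, a 2.22-fold difference, against 0.206% in mock-treated cells. With the sets exchanged, the medians were 0.438% and 0.779%, a 1.78-fold difference, against 0.241% in mock-treated cells. Across the 1120 cells, the shares on both sets had a Spearman rho of 0.733. Both shares came from the same cells and libraries, so the value is a description. Without the 10 selected genes with the most UMIs the ratios were 2.14 and 1.84.

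The RNA that made up the share differed between the groups in how it was spread over genes. When each cell was thinned to 10000 UMIs, the median weak cell had UMIs from 71 selected genes, the median strong cell from 141.5 and the median mock-treated cell from 45. The 10 selected genes with the most UMIs made up 6.70% of the selected-gene UMIs of the weak group, 12.5% of those of the strong group and 0.0471% of those of mock-treated cells. Genes without a single UMI in any mock-treated cell gave 0.104% of all UMIs in the weak group and 0.475% in the strong group. The contrast was widest on the X chromosome. Selected genes on X gave 0.0417% of all UMIs in weak cells and 0.369% in strong cells. Those on chromosome 1 gave 0.0718% and 0.145%, and those on chromosome 19 gave 0.0752% and 0.160%.

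Single selected genes ranged from near absence in weak cells to levels above those of strong cells. The cancer-testis gene MAGEA4 (chrX:151912495-151925171, hg38) was at 58.1 CPM in the weak group, 116 in the second, 159 in the third and 415 in the strong group, with 0 UMIs in mock-treated cells. VCX3B, a gene of the X-linked VCX family, was at 10.9 CPM in weak and 624 in strong cells. Its near-identical copy VCX3A was at 7.89 and 423, and reads of the copies may be split between them. The median strong cell held 0 UMIs of VCX3B and of VCX3A, which had UMIs in 131 and 123 strong cells. The imprinted noncoding RNA MEG3 was at 79.8 and 387, the keratin-associated protein gene KRTAP3-1 at 54.7 and 315, and the transketolase-like gene TKTL1 at 35.3 and 247. GAGE12H, one of the near-identical GAGE copies, was at 25.3 and 240, and LY6K, a surface antigen gene, was at 95.8 and 211.

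UCHL1 and SAP25 had the smallest contrasts of the 10 selected genes with the most UMIs. UCHL1, which encodes a neuronal ubiquitin hydrolase, was at 95.4 CPM in weak and 144 in strong cells, with 139 in both groups between them, and at 0.0258 in mock-treated cells. SAP25, a subunit of the Sin3 corepressor complex, was at 189 CPM in the weak group, 180 in the second, 171 in the third, 128 in the strong group and 1.88 in mock-treated cells, so that weak cells held the most of it. The median weak cell carried 6 UMIs of SAP25 and the median strong cell 3. Over the 200 selected genes with the most UMIs, the median gene was 2.13-fold lower in the weak than in the strong group, the 10th and 90th percentiles were 1.15 and 10.3, and 3 genes were 1.5-fold or more higher in weak cells. These were MYL2, a myosin light chain (21.3 against 6.99 CPM), the linker histone gene HIST1H1A (46.1 against 22.6) and CRACR2B (14.3 against 9.22). At the other end stood VCX2 (0.453 against 38.8), VCX3B, VCX (0.907 against 50.5), VCX3A and the histone variant gene H3.Y (1.63 against 84.4). The median strong cell held 0 UMIs of each gene at this end. H3.Y had UMIs in 19 strong cells, and the highest of them held 412 of its 833 UMIs. VCX2 had UMIs in 27 strong cells and VCX in 92. The strong values of H3.Y and VCX2 thus rested on few cells and do not describe the typical strong cell. As the selected genes ranked the cells, the values describe the groups and support nothing further.

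**Figure D2:**
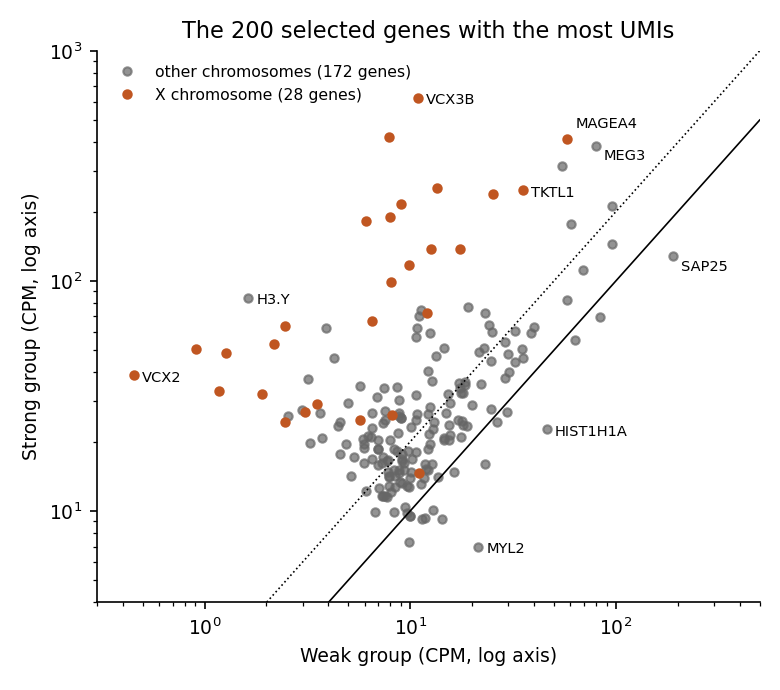
Level of the 200 selected genes with the most UMIs in the weak group (horizontal) and the strong group (vertical), in CPM of the remaining nuclear UMIs on log axes; 28 genes on X are orange, the solid line marks equal levels and the dotted line a 2-fold difference. The median gene is 2.13-fold lower in weak cells, VCX3B (10.9 against 624) lies far above the lines and SAP25 (189 against 128) below the solid line.

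The upstream sequences of MAGEA4 and SAP25 are shown because both genes were among the 10 selected genes with the most UMIs, MAGEA4 lower and SAP25 higher in weak cells, and because DNA methylation sits at CpG dinucleotides, which are in capitals. Each run holds the 250 bases before the RefSeq start (GRCh38.p14), read 5′ to 3′ on the gene's strand. That of MAGEA4 (chrX:151912224-151912473, plus strand) holds 6 CpGs and that of SAP25 (chr7:100573901-100574150, minus strand) holds 21, against a median of 11 over all 27195 promoters of that length. The data hold no methylation values for these sites.
MAGEA4: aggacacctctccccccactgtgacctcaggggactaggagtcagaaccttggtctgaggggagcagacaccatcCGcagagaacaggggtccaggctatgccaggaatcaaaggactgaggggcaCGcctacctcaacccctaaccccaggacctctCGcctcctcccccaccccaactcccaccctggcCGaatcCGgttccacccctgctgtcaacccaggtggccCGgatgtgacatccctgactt
SAP25: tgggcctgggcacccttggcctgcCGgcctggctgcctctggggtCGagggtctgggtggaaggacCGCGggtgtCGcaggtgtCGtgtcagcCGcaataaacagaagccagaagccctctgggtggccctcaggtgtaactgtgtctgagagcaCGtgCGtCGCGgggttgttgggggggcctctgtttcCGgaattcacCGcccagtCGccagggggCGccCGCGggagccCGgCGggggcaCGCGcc

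Genes that the study followed in single cells had few UMIs in both groups. All 8 named here are selected genes and so took part in the ranking, which partly fixes their direction, and their counts are a description. The mitotic checkpoint gene CHFR had 24 UMIs over the 280 weak cells and 100 over the 280 strong cells. FBLN2, a matrix protein gene, had 59 and 89, the adhesion gene ICAM4 had 34 and 61, and the secreted WNT antagonist gene SFRP1 had 72 and 226. The retroviral loci ERVMER61-1 and ERVW-1 had 31 against 36 and 0 against 11 UMIs. The interferon-stimulated genes IFI44 and IFI16 had 53 against 118 and 0 against 24. A count of 0 in the weak group allows up to 0.272 CPM.

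Among the remaining genes, 8691 had 200 or more UMIs over both groups together and were compared. Of these, 322 (3.70%) were 1.5-fold or more higher in the weak group and 1838 (21.1%) were 1.5-fold or more lower. The median gene had a log2 ratio of weak to strong of -0.22, so list medians below are to be read against that value. Scaled so that the median gene is at 0, 821 genes (9.45%) were higher and 931 (10.7%) lower, and the share of higher genes among all that passed the fold went from 14.9% to 46.9%. A gene with few UMIs in weak cells could pass the minimum through its level in strong cells alone, so counts of lower genes partly follow from it.

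Mock-treated cells ranked by the same share and split in the same manner served as the background without drug. The share was made up of other RNA there, as selected genes were defined by their low counts in mock-treated cells. The 200 selected genes with the most UMIs in DAC-treated cells gave 4.14% of selected-gene UMIs in mock-treated cells, 32.7% in the weak and 39.4% in the strong group. The lowest and highest groups of mock-treated cells, 324 cells each, had median shares of 0.358% and 0.578%. They also differed in depth, with medians of 36267 and 27774 UMIs, and in MT- share, 16.3% and 18.3%, and the part of this in the mock values was not tested. Of 7959 genes compared there, 337 (4.23%) were higher and 1073 (13.5%) lower in the lowest group, with a median log2 ratio of -0.13. Counts of list members in mock-treated cells below are to be read against these shares. The ranking thus split cells that had received no drug as well, and the mock values are given beside the main gene lists. Whether the ratios of both libraries differ was not tested.

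Mitotic genes stood out at the high end. Of the 10 remaining genes with the highest weak to strong ratio among those with 1000 or more UMIs, 9 have known roles in the cell cycle. CCNB1, the cyclin that drives entry into mitosis (chr5:69167135-69178245, hg38), was at 394 CPM in the weak group, 306 in the second, 226 in the third and 138 in the strong group, and at 118 in mock-treated cells. The median weak cell held 12 UMIs of CCNB1 and the highest 81, and the median strong cell held 2 and the highest 44. The levels declined over the groups in order, while single cells overlapped. The ratio was 2.85 (interval 2.68 to 3.03).

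CCNB2, the related B-type cyclin, had the highest ratio, 2.98 (125 against 42.0 CPM). The kinase-associated phosphatase CDKN3 was 2.85-fold higher, the mitotic gene PRR11 2.84-fold and the spindle protein gene HMMR 2.79-fold. CDCA3 was 2.68-fold higher, the cyclin gene CCNA2 2.54-fold, the mitotic kinase gene PBK 2.48-fold and the mitotic kinase PLK1 2.46-fold. The other gene of the 10 was S100A4, a calcium-binding protein, which was at 492 CPM in weak, 199 in strong and 630 in mock-treated cells.

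All 54 genes of the G2/M list were compared. Of them, 45 were 1.5-fold or more higher in the weak group and 0 lower, beside 3.70% and 21.1% of all compared genes, and the median log2 ratio was 0.97. The list summed to 9819 CPM in the weak, 9016 in the second, 7558 in the third and 5701 in the strong group, and to 4001 in mock-treated cells. Per cell, the summed level had a median of 91.3 UMIs per 10000 in the weak group (lowest 5.88, highest 232) and of 33.9 in the strong group (lowest 6.95, highest 228). The 90th percentile of mock-treated cells was exceeded by 136 of 280 weak cells (48.6%, exact binomial interval 42.6 to 54.6), 123 second-group cells (43.9%), 94 third-group cells (33.6%) and 53 strong cells (18.9%). Cells with a high level were thus found in every group and were most frequent in the weak one. In mock-treated cells split by the same share, 44 of 54 genes were higher and the median was 1.00, which is close to the value in DAC-treated cells. For the lower against the upper 50% of DAC-treated cells the count was 23.

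Promoters of cell cycle genes often carry CCAAT boxes and a cell cycle homology region (CHR, TTTGAA), and the upstream sequences of CCNB2 and PLK1 show both. Motifs were searched on both strands of the 250 bases before the RefSeq start, and TTTGAA and CCAAT do not overlap each other in these runs. Matches are in capitals.
CCNB2: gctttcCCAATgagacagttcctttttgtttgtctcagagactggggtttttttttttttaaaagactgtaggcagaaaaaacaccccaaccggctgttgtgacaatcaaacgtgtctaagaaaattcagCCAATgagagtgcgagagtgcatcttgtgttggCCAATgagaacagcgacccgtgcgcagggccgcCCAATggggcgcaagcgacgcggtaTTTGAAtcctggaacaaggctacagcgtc
PLK1: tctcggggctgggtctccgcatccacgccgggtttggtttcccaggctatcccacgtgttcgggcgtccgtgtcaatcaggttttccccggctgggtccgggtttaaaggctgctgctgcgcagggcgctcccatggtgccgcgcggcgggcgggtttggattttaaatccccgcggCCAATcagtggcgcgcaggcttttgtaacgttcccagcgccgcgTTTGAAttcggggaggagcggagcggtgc
The first run lies at chr15:59104896-59105145, plus strand and the second at chr16:23678639-23678888, plus strand (GRCh38.p14). In CCNB2 the TTTGAA starts 29 bases before the gene start, and CCAAT starts at 54, 87, 120 and 244 bases before it. In PLK1 the TTTGAA also starts at 29 bases and CCAAT at 73. Of the 45 G2/M genes with a higher level in weak cells, 37 matched a RefSeq promoter, 19 of these (51.4%) held TTTGAA and 28 (75.7%) held CCAAT. These shares lay near those of the whole G2/M list, where 52.2% and 69.6% of 46 matched promoters held them. Of all 27195 promoters of that length, 13.6% held TTTGAA and 33.0% held CCAAT, and of the 6983 matched among the compared genes 7.95% and 35.7% did. A match is a description of letters.

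**Figure D3:**
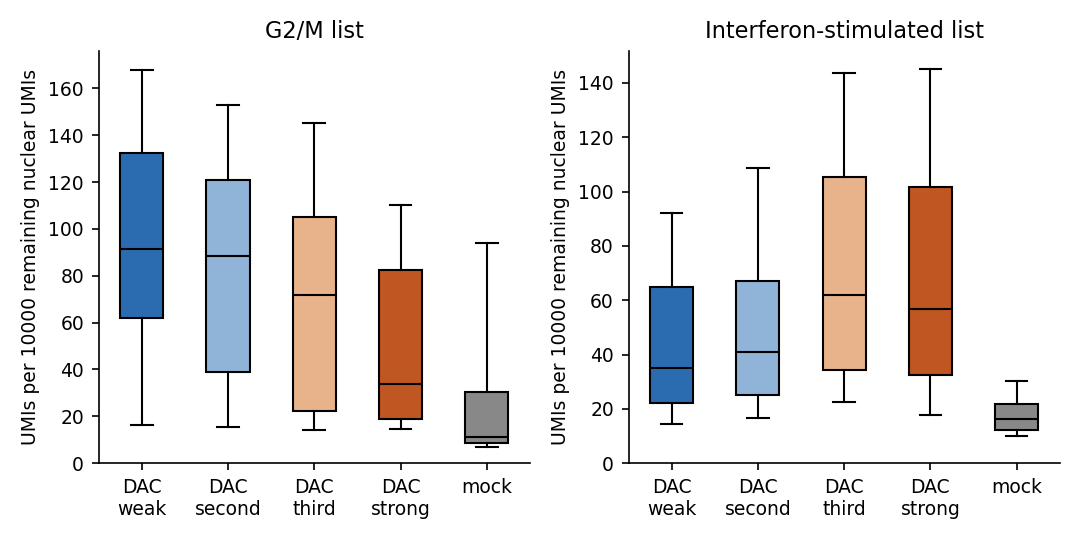
Summed level per cell of the G2/M list (left) and of the interferon-stimulated list (right), in UMIs per 10000 remaining nuclear UMIs, for the 4 groups of DAC-treated cells and for mock-treated cells; boxes span the quartiles, lines the median and whiskers the 10th to 90th percentiles. The G2/M median is 91.3 in weak and 33.9 in strong cells, and the interferon-stimulated median is 35.0 and 56.9.

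Of 43 S phase genes compared, 15 were 1.5-fold or more higher in weak cells, 28 were within the fold and 0 were lower. Of all compared genes, 3.70% were higher and 21.1% lower. The median log2 ratio of the list was 0.49, with sums of 4276 CPM in the weak, 3045 in the strong group and 1744 in mock-treated cells. RRM2, a subunit of ribonucleotide reductase, was at 281 in weak and 130 in strong cells, the replicative clamp PCNA at 301 and 169, and thymidylate synthase TYMS at 326 and 185. In mock-treated cells 17 of 37 genes were higher and the median was 0.51. The count in DAC-treated cells depended on the setting: it was 31 with the median gene set to 0, 8 within bins of MT- share, 5 when genes with 0 UMIs in mock ranked the cells and 1 for the lower against the upper 50% of cells. When DAC-treated cells were ranked within 10 bins of equal G2/M level, 2 S phase genes and 0 G2/M genes stayed past the fold, and MKI67, a proliferation marker at 597 against 335 CPM in the groups, had a log2 ratio of -0.07. That ranking removes the G2/M contrast by construction. Over all 1120 cells, the share had a Spearman rho of -0.28 with the G2/M level and of -0.24 with the S phase level, from counts of the same cells.

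Replication-dependent histone genes were mixed. Of 11 compared, 3 were higher in the weak group and 6 lower, beside 3.70% and 21.1% of all compared genes. HIST1H4C, a core histone gene, was at 895 CPM in weak, 382 in strong and 1118 in mock-treated cells. HIST1H1C, a linker histone gene that is also expressed outside S phase, was at 212, 507 and 107. Transcripts of such genes mostly lack the poly(A) tail that the 3′ chemistry primes on, so these counts cover a part of them. In mock-treated cells 4 of 5 were higher and 1 was lower. Among 11 genes that inhibit the cycle, 3 were lower and 0 higher in weak cells, a count near the 21.1% of all compared genes that were lower and no result about the list. The 3 were CDKN1C (21.4 against 43.6), CDKN2B (7.61 against 17.9) and BTG1 (57.6 against 203), while the p53 target CDKN1A was at 248 and 297.

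DNMT1 and UHRF1 were not low in weak cells. DNMT1 (chr19:10133342-10231286, hg38) was at 311 CPM in the weak, 297 in the second, 262 in the third and 252 in the strong group, and at 143 in mock-treated cells. The median weak cell held 12 UMIs of it and the median strong cell 7. The ratio was 1.24 (interval 1.18 to 1.30), under the 1.5-fold limit. UHRF1, which recruits DNMT1 to replicated DNA, was at 81.4 in weak, 38.5 in strong and 21.6 in mock-treated cells, a ratio of 2.11 (interval 1.87 to 2.39). The de novo methyltransferase DNMT3B was at 12.1 and 8.21, and DNMT3A, with 75 and 104 UMIs and so below the minimum, at 6.80 and 10.5 (ratio 0.645, interval 0.473 to 0.876).

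Of 23 genes of DNA methylation compared, 5 were higher and 7 lower in weak cells, beside 3.70% and 21.1% of all compared genes, with a median log2 ratio of -0.12. The count of lower genes lay near that background. Besides UHRF1 and PCNA, the higher ones were MTHFD1 of folate metabolism (70.6 against 31.7 CPM), CDCA7 (47.4 against 24.5) and the chromatin remodeler HELLS (129 against 84.8), which works together with CDCA7. The lower ones were MBD1 (27.5 against 60.2) and MBD3 (42.2 against 67.2), 2 genes of the methyl-CpG binding domain family, the methyl-CpG reader ZBTB38 (38.7 against 68.2), UHRF2 (15.1 against 25.1), GADD45A (76.5 against 156), GADD45B (37.4 against 76.5) and IDH2 (16.7 against 26.9). IDH2 had a log2 ratio of 0.05 when the 5% of cells with the highest share were left out, so that its low value rested on those cells. TET2 had a log2 ratio of -0.40, and TET1 and TET3 had under 200 UMIs. With the median gene set to 0 on the log2 scale, 6 genes were higher and 4 lower. Within bins of the G2/M level, the log2 ratio was -0.03 for DNMT1, 0.63 for UHRF1 and -1.10 for MBD1. In mock-treated cells 1 of 23 genes was higher and 2 were lower, and UHRF1 was at 22.3 in the lowest and 17.3 in the highest group.

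**Figure D4:**
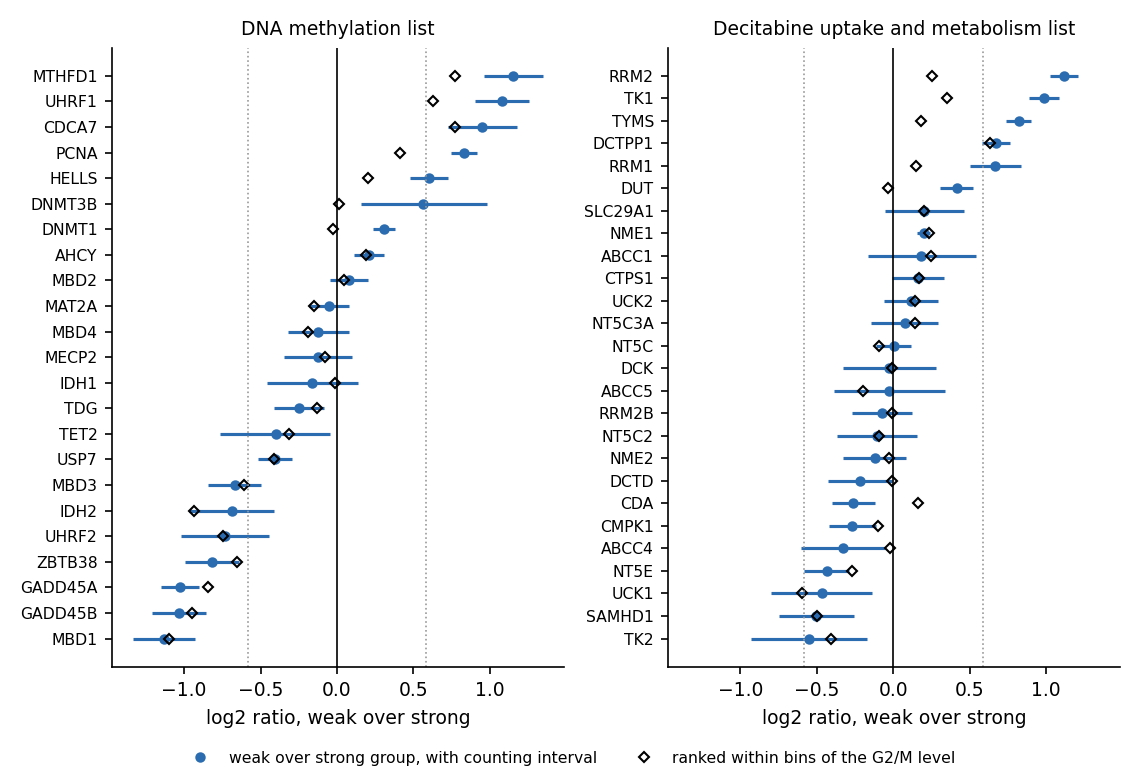
log2 ratio of weak to strong group for the compared genes of DNA methylation (left, 23 genes) and of decitabine uptake and metabolism (right, 26 genes), with lines for the 95% counting interval and diamonds for the ratio when cells were ranked within bins of the G2/M level; dotted lines mark 1.5-fold. DNMT1 (0.31), SLC29A1 (0.20) and DCK (-0.02) lie inside the dotted lines, and the diamonds of RRM2, TK1 and TYMS lie closer to 0 than their circles.

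The transporter, the kinase and the inactivating enzymes of DAC described here were within the 1.5-fold limit. SLC29A1, which encodes the equilibrative nucleoside transporter ENT1, was at 25.9 CPM in weak and 22.5 in strong cells (ratio 1.15, interval 0.964 to 1.38) and at 14.8 in mock-treated cells. DCK, the kinase that phosphorylates the drug first, was at 17.1, 17.4 and 12.4 (ratio 0.983, interval 0.795 to 1.22). For both genes the interval of the ratio held 1. The median compared gene, with a log2 ratio of -0.22, lay inside the interval of DCK and below that of SLC29A1, so the reading for SLC29A1 depended on the scaling. Cytidine deaminase CDA, which inactivates the drug, was at 72.2 in weak and 86.5 in strong cells (ratio 0.834, interval 0.756 to 0.919), and SAMHD1, which cleaves its triphosphate, at 22.8 and 32.2 (ratio 0.706, interval 0.596 to 0.836). Both ratios were below 1 beyond counting error. The interval of CDA held the median compared gene, and that of SAMHD1 lay below it.

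Of 26 genes of uptake and metabolism compared, 5 were higher in weak cells and 0 lower, beside 3.70% and 21.1% of all compared genes, with a median log2 ratio of -0.01. The 5 were RRM2, RRM1 (74.6 against 46.9 CPM), TYMS, thymidine kinase TK1 (244 against 124) and the pyrophosphatase DCTPP1 (239 against 150). Except DCTPP1, these enzymes supply deoxynucleotides for replication, and RRM1, RRM2 and TYMS stand in the S phase list as well. The concentrative transporter genes SLC28A1, SLC28A2 and SLC28A3 were selected genes with at most 9 UMIs in either group. Within bins of the G2/M level, DCTPP1 alone stayed 1.5-fold or more higher (log2 ratio 0.63), with RRM2 at 0.26 and TK1 at 0.35, and the uridine-cytidine kinase gene UCK1 was 1.5-fold lower (log2 ratio -0.60, against -0.47 without bins). In mock-treated cells 4 of 24 genes were higher and 1 lower, and RRM2 was at 91.6 in the lowest and 26.8 in the highest group.

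Interferon-stimulated genes were lower in weak than in strong cells, and their sum in weak cells was nevertheless above that of mock-treated cells. Of the 57 genes of the list, 16 were selected genes and took part in the ranking, so the list was not independent of it. The values below cover the remaining members. Single genes such as ISG20 and IFITM2 were below their mock levels of 28.0 and 141 CPM. Of 40 compared, 23 were 1.5-fold or more lower and 0 higher, beside 21.1% and 3.70% of all compared genes, with a median log2 ratio of -0.77. The list summed to 4524 CPM in the weak, 5173 in the second, 7057 in the third and 6885 in the strong group, against 1749 in mock-treated cells. Per cell, the median was 35.0 UMIs per 10000 in weak cells (lowest 4.43, highest 223), 56.9 in strong cells (lowest 6.22, highest 342) and 16.2 in mock-treated cells (highest 82.1). Single cells overlapped over most of the range. Some members passed the minimum through the strong group: of the 32 genes with 200 or more UMIs in mock-treated cells, 16 were lower (median -0.61), and of the 14 with 1000 or more UMIs over both groups, 4 were (median -0.32).

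IFI27, a mitochondrial protein gene induced by interferon (chr14:94104836-94116695, hg38), was at 758 CPM in weak, 1540 in strong and 5.86 in mock-treated cells, and the median weak cell held 16 UMIs of it against 34.5 in the median strong cell. ISG15, the ubiquitin-like modifier, was at 1320, 1926 and 272. The lowest ratios were those of IFIT2 (3.81 against 35.2), in which the median cell of both groups held 0 UMIs, and of the nuclease gene ISG20 (12.3 against 71.0). IFITM2 was at 114 in weak and 81.7 in strong cells, the highest ratio of the list. Under the ranking within G2/M bins, 25 of 40 were lower. When only genes with 0 UMIs in mock ranked the cells, 11 were lower and 1 was higher. In mock-treated cells 12 of 24 were lower and 0 higher, with a median of -0.56.

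The interferon-stimulated response element (searched on both strands as GAAA, any 2 bases, GAAA) occurs in 3.07% of all 27195 promoters of 250 bases. It occurs in 2.18% of the matched promoters of compared genes and in 57.6% of the 33 matched promoters of the interferon-stimulated list as a whole. Of the 23 genes that were lower in weak cells, 19 matched a promoter and 12 of these (63.2%) held it, a share near that of the whole list. The run of IFI27, at chr14:94110486-94110735, plus strand (GRCh38.p14), is shown as the gene of the list with the second-highest count, with the matches in capitals. It precedes the RefSeq start, which lies inside the GENCODE span given above.
IFI27: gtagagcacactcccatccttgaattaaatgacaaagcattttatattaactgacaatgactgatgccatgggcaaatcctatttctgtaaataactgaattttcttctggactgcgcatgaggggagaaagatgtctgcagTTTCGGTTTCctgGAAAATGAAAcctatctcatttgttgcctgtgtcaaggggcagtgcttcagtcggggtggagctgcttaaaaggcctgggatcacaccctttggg

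The counts for antigen presentation and nucleic acid sensing genes are to be read against the 21.1% of all compared genes that were lower, and lie near it. Of 15 genes of MHC class I presentation compared, 4 were lower in weak cells and 0 higher, namely HLA-B (225 against 367 CPM), HLA-F (6.35 against 13.2), the peptide loading factor TAPBP (63.7 against 97.9) and the immunoproteasome subunit PSMB9 (20.9 against 40.5). In mock-treated cells 3 of 14 were lower. Of 10 genes of nucleic acid sensing and interferon receptors compared, 3 were lower (TRAF3, IFNAR1 and IFNGR1) and 0 higher, and 3 of 11 were lower in mock-treated cells.

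Immediate early genes, which are transcribed within minutes of a stimulus, were lower in weak than in strong cells, and in mock-treated cells they did not lean one way. Of 15 compared, 10 were 1.5-fold or more lower and 0 higher, beside 21.1% and 3.70% of all compared genes. The median log2 ratio was -0.95, with sums of 1655 CPM in the weak, 1797 in the second, 2077 in the third and 2824 in the strong group. Mock-treated cells were above all of these, at 3968. JUN, a subunit of the AP-1 factor (chr1:58776845-58784048, hg38), was at 64.1 in weak, 216 in strong and 127 in mock-treated cells, and the median weak cell held 1 UMI of it against 5 in the median strong cell. ATF3 was at 18.5, 95.3 and 47.4, and the phosphatase gene DUSP1 at 13.1, 45.6 and 19.5. In mock-treated cells split by the share, 1 of 16 was higher and 1 lower, with a median of -0.04. Ranking within G2/M bins left 10 lower. Over the 1120 cells the share had a Spearman rho of 0.40 with the summed level of the list.

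Of 13 NF-kB and chemokine genes compared, 10 were lower in weak cells and 1 was higher, beside 21.1% and 3.70% of all compared genes. The median log2 ratio was -0.90. CXCL8 and other members passed the minimum through the strong group, and among the 9 genes with 200 or more UMIs in mock-treated cells 6 were lower and 1 higher. CXCL8, a neutrophil chemokine, was at 4.71 CPM in weak and 62.5 in strong cells. CXCL1 was at 6.80 and 39.0, and the cytokine gene IL32 at 125 and 277. LCN2, an iron-binding secreted protein, was the one higher in weak cells, at 102 against 67.3. The list summed to 915 in the weak and 1533 in the strong group, against 950 in the lowest and 555 in the highest group of mock-treated cells, where 2 of 8 genes were higher and 0 lower.

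**Figure D5:**
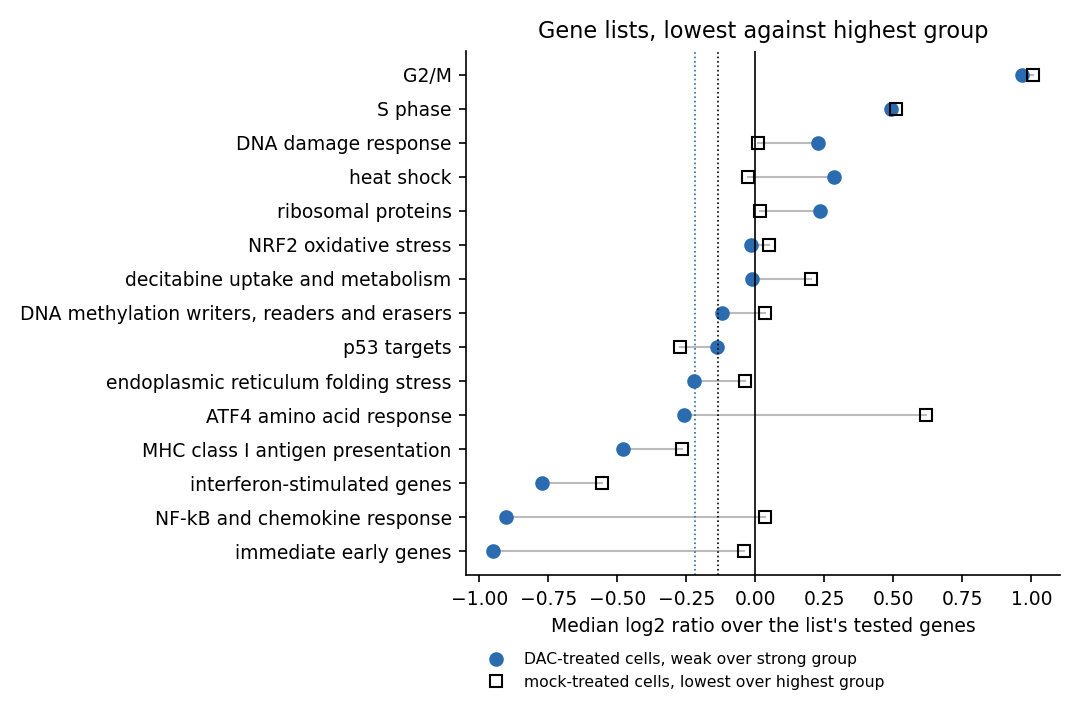
Median log2 ratio of the lowest to the highest group over the compared genes of 15 gene lists, in DAC-treated cells (circles) and in mock-treated cells split in the same manner (squares); dotted lines mark the median of all compared genes, -0.22 and -0.13. The G2/M (0.97 and 1.00) and S phase (0.49 and 0.51) pairs lie together, and the immediate early (-0.95 and -0.04), NF-kB (-0.90 and 0.03) and ATF4 (-0.26 and 0.62) pairs lie apart.

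Genes of the ATF4 amino acid response had a median log2 ratio of -0.26, close to that of all compared genes (-0.22). Of 27 compared, 9 were lower in weak cells and 2 higher, beside 21.1% and 3.70% of all compared genes. DDIT3, which encodes the stress factor CHOP, was at 20.5 CPM in the weak, 20.9 in the second, 26.0 in the third and 131 in the strong group, and at 197 in mock-treated cells. The median cell of both groups held 0 UMIs of DDIT3 and the highest strong cell held 375, so that the strong value rested on few cells, and without the 5% of cells with the highest share the log2 ratio went from -2.68 to -1.48. PPP1R15A, which restores translation after stress, was at 49.5 in weak, 161 in strong and 134 in mock-treated cells. Without the same cells its log2 ratio went from -1.70 to -1.07. The higher genes were PSAT1 (64.9 against 41.4) and PHGDH (61.4 against 40.7), enzymes of serine synthesis. The list summed to 1886 CPM in the weak, 1775 in the second, 1740 in the third and 2356 in the strong group, so that the weak group was not the lowest. Per cell, the median was 16.3 UMIs per 10000 in weak and 17.2 in strong cells, with 90th percentiles of 31.0 and 44.5. In mock-treated cells the sum was 5122, and 14 of 26 genes were higher in the lowest group and 0 lower. Among DAC-treated cells without the 5% with the highest share, 4 genes were lower and 3 higher, and with the median gene set to 0, 4 and 4.

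A minority of the heat shock list was higher in weak cells. Of 14 compared, 4 were 1.5-fold or more higher and 0 lower, beside 3.70% and 21.1% of all compared genes. The list summed to 17668 CPM in the weak, 15963 in the second, 13712 in the third and 11762 in the strong group, with 7822 in mock-treated cells. The 4 were HSP90AA1 (6791 against 4192), HSP90AB1 (4170 against 2715) and the mitochondrial chaperonins HSPD1 (1609 against 839) and HSPE1 (1248 against 728). The stress-inducible HSPA1A, a selected gene of the list that ranked the cells and whose reads may be shared with a near-identical copy, was at 69.1 in weak and 111 in strong cells. In mock-treated cells 0 of 14 were higher and 2 lower. Within bins of the G2/M level, 1 (HSPD1, log2 ratio 0.68) stayed past the fold, and the same number did when genes with 0 UMIs in mock ranked the cells. For the lower against the upper 50% of cells the count was 0.

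The counts for p53 targets and for folding stress genes lay near the 21.1% of all compared genes that were lower, and are no result about these lists. Of 29 p53 targets compared, 1 was higher in weak cells (FDXR, 135 against 88.2 CPM) and 5 were lower, namely TP53I3 (23.9 against 47.9), SESN2, the death receptor gene TNFRSF10B, GADD45A and TP53INP1. Of 30 DNA damage response genes, 5 were higher, beside 3.70% of all compared genes, and 0 lower (CHEK2, FANCD2, FANCI, MSH6 and UNG). Of 18 genes of protein folding stress in the endoplasmic reticulum, 4 were lower, with DNAJB9 at 16.8 against 52.3, and the list summed to 3678 and 3664. Of 17 NRF2 targets 1 (OSGIN1) was lower, and of 4 metallothioneins 2 were, MT1X at 79.4 against 191 and MT1F at 8.25 against 21.5. In mock-treated cells 3 of 26 p53 targets were higher and 6 lower.

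The remaining genes with the lowest ratios came from several pathways. GAGE2A, a cancer-testis gene with copies of near-identical sequence, was at 37.1 CPM in weak, 328 in strong and 0.181 in mock-treated cells. The tubulin gene TUBA1A was 4.45-fold lower (41.7 against 185), the autophagy gene GABARAPL1 3.70-fold (23.1 against 85.4) and the complement regulator CD55 3.59-fold (22.3 against 80.1). Uridine phosphorylase UPP1 was at 66.2 and 252. BTG1, named above, was 3.53-fold lower. Reads of TUBA1A may be shared with its paralogs. These genes, with DDIT3, ATF3, JUN and PPP1R15A, are the 10 lowest among genes with 1000 or more UMIs. Except for GAGE2A, their levels in weak cells were within 1.5-fold of the mock level only for TUBA1A and GABARAPL1, and below it for the others.

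Counts for lists of general cell functions are given beside the 3.70% of all compared genes that were higher and the 21.1% that were lower. Ribosomal protein genes summed to 149480 CPM in the weak, 127051 in the strong group and 203455 in mock-treated cells, and 1 of 43 (RPL11) was 1.5-fold higher in weak cells. With the median gene set to 0, 10 of 43 were higher and the median log2 ratio was 0.45 in place of 0.23. Of 34 nuclear genes of oxidative phosphorylation 1 (CYC1) was higher, and of 19 housekeeping genes 1 (POLR2A) was lower. Of 21 genes of ribosome biogenesis 1 (BOP1) was higher. Of 16 cholesterol synthesis genes 5 were lower, with HMGCS1 at 24.5 against 71.5, and of 11 WNT targets 4 were lower, with AXIN2 at 7.07 against 23.3. Of 28 genes of histone-based silencing 4 were lower (SETDB1, MORC2, FAM208A and SIRT1) and 0 higher, and of 12 BCL2 family genes 3 were lower (MCL1, BAK1 and BCL2L11).

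Both the epithelial and the mesenchymal list summed higher in weak cells, the latter at 794 against 650 CPM, mostly through VIM. The counts that follow are beside 3.70% higher and 21.1% lower of all compared genes, over lists of at most 19 genes. Of 12 epithelial markers 1 was higher, KRT8 at 2992 against 1738 CPM, with KRT18 at 6460 and 4412. Of 5 mesenchymal genes compared 4 were lower (COL1A1, ZEB1, SNAI1 and TWIST1). VIM, the intermediate filament of mesenchymal cells, was at 746 in weak, 562 in strong and 9.37 in mock-treated cells, so that it stood far above the mock level in the weak group too. Of 5 intestinal differentiation genes 1 was higher (EREG, 158 against 84.0, and 686 in mock-treated cells) and 2 were lower, and of 19 hypoxia and glycolysis genes 1 was higher and 3 lower, near those shares. The nuclear RNAs NEAT1 (516 against 998) and KCNQ1OT1 (51.9 against 113) were lower in weak cells, 2 of 3 compared. Of 42 cancer-testis genes 37 were selected, and of the 5 compared 3 were lower (MAGEB1, GAGE2A and PRAME, the last at 45.3 against 89.9).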

How the data were processed

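Per the labels, libraries were made with the 10x Genomics 3′ v3 kit and processed by the authors with Cell Ranger against hg38. The gene annotation release is not given in the sources used here. The deposited files hold UMI counts per gene and cell, 1 file per library, with no normalization. Cells with 10000 or more UMIs and 50% or less MT- UMIs were kept, no doublet caller was run, and an alternative dropped the 5% with the highest UMI totals. Total UMIs were 13561642 in the weak and 12670495 in the strong group. Remaining genes with 200 or more UMIs over both groups were compared by the ratio of summed levels, with exact conditional 95% intervals, and a 1.5-fold ratio was the limit. No model or test between groups was run, because each condition had 1 library. Thinning drew 10000 UMIs per cell with a fixed seed. The procedure was tested on simulated data with known fold changes.

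The members and the gene lists were chosen with earlier results of these data known. Genes were named by rule: the 10 highest and 10 lowest ratios among remaining genes with 1000 or more UMIs, the 10 selected genes with the most UMIs, in each list the 2 members with the most UMIs, the 2 highest and the 2 lowest ratios, all compared genes of the DNA methylation and uptake lists, and genes named in the study's single-cell results. Genes that made up short counts of members past the fold, and the extremes among the 200 most abundant selected genes were named after their values were seen. Of 22 alternatives, 5 were added after the data were seen. Gene positions came from GENCODE 44 (hg38), matched by identifier for 33113 of 33538 genes, and promoter sequences from RefSeq (GRCh38.p14). Python 3.11.15, numpy 2.4.6, scipy 1.17.1, pandas 2.3.3 and matplotlib 3.10.9 were used.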

Additional observations from a re-analysis of the deposited data

Results flagged for a closer look

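For 5 of 32 gene lists compared, the summed level leaned one way between the lowest and the highest of 4 equal groups of DAC-treated cells and the other way in mock-treated cells split by the same share, by 1.2-fold or more in each. The ratio of lowest to highest group was 0.597 in DAC-treated and 1.71 in mock-treated cells for the NF-kB and chemokine genes, and 0.800 and 1.52 for the ATF4 amino acid response. It was 0.761 and 1.41 for the metallothioneins, 0.784 and 1.97 for intestinal differentiation genes, and 1.22 and 0.558 for mesenchymal genes. The ATF4 sum in weak cells (1886 CPM) was above that of the second (1775) and the third group (1740). The mesenchymal sum in weak cells was mostly VIM (746 of 794 CPM), and gene by gene the list leaned low in both libraries, with 4 of 5 compared genes lower in DAC-treated cells (median log2 ratio -0.69) and 2 of 2 in mock-treated cells (-0.72). For the metallothioneins, 1 of 4 genes was higher and 1 lower in mock-treated cells (median log2 ratio -0.04), so that the opposite lean there was one of the sum. For the NF-kB genes, 2 of 8 were higher and 0 lower in mock-treated cells (median log2 ratio 0.03), and most members did not pass the fold. For intestinal differentiation, 1 of 5 was higher and 0 lower there (median log2 ratio 0.50). The difference between the libraries was not tested, as each condition had 1 library.

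Cells outside the filter on UMIs and MT- share were used in no comparison. The 631 DAC-treated cells among them had a median selected-gene share of 1.198% at a median of 2496 UMIs and 50.8% MT- UMIs. The 485 mock-treated cells had a median share of 0.484%, at a median of 6028 UMIs and 64.9% MT- UMIs. Of the 631, 205 (32.5%) had a share at or below the highest of the weak group.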

How the results depend on the processing

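No paired analysis was possible because each condition had 1 library. Counts below are genes past the fold in the direction reported, and the cause of each shift was not tested unless stated. With cells thinned to 10000 UMIs, 206 genes were higher and 482 lower (fewer genes reached the minimum), with histones 1, interferon-stimulated 9, p53 2, ATF4 5, NRF2 0 and DNA methylation 3. Ranked within bins of UMIs, NRF2 gave 0, and within bins of MT- share, S phase gave 8, heat shock 2 and uptake 3. With 20% or less MT- UMIs, 1164 were lower, with S phase 9 and uptake 3. The outer 10% of cells at each end in place of 25% gave 522 higher, histones 2 and p53 10. The lower against the upper 50% gave 76 higher and 889 lower, S phase 1, G2/M 23, ATF4 3, endoplasmic reticulum 2, heat shock 0, NRF2 0, DNA methylation 4 and uptake 1. Ranked by genes with 0 UMIs in mock, 1043 were lower, with S phase 5, interferon-stimulated 11, heat shock 1, NRF2 0 and uptake 3, and the share from those genes had medians of 0.095% and 0.39% in the weak and strong groups. Without the 10 top selected genes, p53 gave 8. Ranked by the number of selected genes, NRF2 gave 0 and uptake 3. Median-of-ratios scaling gave 821 and 931, S phase 31, ATF4 4, NRF2 0 and DNA methylation 4. The mean of per-cell levels gave p53 8. A minimum of 1000 UMIs gave 180 and 384, S phase 9, histones 1, interferon-stimulated 4, p53 2, ATF4 5, endoplasmic reticulum 2, NRF2 0 and DNA methylation 4, and a minimum of 20 gave 2986 lower. A 2-fold limit gave 60 and 486, S phase 2, G2/M 23, histones 2, interferon-stimulated 13, p53 2, ATF4 4, endoplasmic reticulum 2, heat shock 0, NRF2 0, DNA methylation 3 and uptake 1. Within bins of the G2/M level, 115 were higher, with S phase 2, G2/M 0, heat shock 1, NRF2 0 and uptake 1, and MKI67 was at a log2 ratio of -0.066. Without the 5% of cells with the highest share, S phase gave 9, ATF4 4, NRF2 0, DNA methylation 4 and uptake 3, and IDH2 was at 0.053. With genes of 200 or more UMIs in mock, histones gave 3. Without selected genes on X, p53 gave 9 and NRF2 0. Without MT- UMIs in the denominator, the median share was 0.965% and 2.31%. Of 4549 values for 216 named genes, 3236 stayed within their counting interval, 1311 moved and 2 reversed. With 1 library per condition, spread between cultures is unknown, and sparse genes limit the comparison: 200 UMIs over 560 cells was the least compared.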
